A study of Homo sapiens with 8 samples.

Results

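Untreated C4-2 human prostate cancer cells were described from 3 of the 8 RNA-sequencing samples of this series, those exposed for 24 h to phosphate buffered saline (PBS), the vehicle of the drug experiment. The other 5 samples, exposed to 5 mM metformin or 1 mM phenformin, served only where the reads of libraries were compared. C4-2 is an androgen-independent line that was derived from LNCaP cells, which themselves came from a metastasis of prostate cancer. All cells were grown in T medium with 5% heat inactivated fetal bovine serum, biotin, adenine, insulin and apotransferrin, and no removal of steroids from the serum is described. It is 1 line with no normal prostate epithelium and no other cell type beside it. Whether the 3 samples came from separate cultures is not stated, and the spread between them may be technical.

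The values are RPKM, reads scaled by exon length and by library size, for 57773 gene features. RPKM is per length, so levels of different genes can be set side by side as far as the exon length used is that of the transcript. The lengths of the transcripts in these cells are not known, and orders, ratios and shares between genes are approximate. A gene is named expressed below where it had at least 1 RPKM in each of the 3 libraries, near 0 where it had less than 0.1 RPKM in each, and low in between. By this rule 11319 features were expressed, which is 19.6% of all features, and 39293 were near 0. Of 18952 features that RefSeq annotates as protein-coding, 10079 (53.2%) were expressed, and 30.5% were near 0. Counts of list members below are to be read beside that 53.2%. Those of long noncoding RNAs are to be read beside the 12.4% expressed of the features that RefSeq gives that class. The median level of an expressed feature was 6.57 RPKM, 3816 features reached 10 RPKM in each library, 202 reached 100 and 12 reached 1000.

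The luminal cell of the prostate lines the gland and secretes into its lumen. It depends on androgens, which together with the factors FOXA1 and HOXB13 keep genes such as the kallikreins active. Basal cells lie beneath it and make TP63 and the keratins KRT5 and KRT14. Prostate cancers are mostly luminal, and some lose this program and take on neuroendocrine genes.

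PBS replicates 1, 2 and 3 held 44774670, 13837455 and 15256449 reads, and gene features held 78.6%, 78.3% and 77.2% of them. The study's methods describe paired ends and FPKM, whereas the column headings of the table say RPKM, so whether a recovered read is a single read or a pair is unknown. Replicate 1 was deeper than the other 2 together, and it lacked few of the rare features that they held. Of 901 protein-coding features with exactly 1 read in replicate 2, 50 (5.55%) had none in replicate 1, and of 970 such features of replicate 3, 59 (6.08%) had none. The same features of replicate 2 had no read in 35.6% of cases in the 3 metformin libraries together, whose summed depth is close to that of PBS replicate 1. Those libraries also differ in treatment, so this share may not reflect sampling alone. Features with 1 read in a metformin library had none in PBS replicate 1 in 18.3% to 20.0% of cases. Less the reads of replicates 2 and 3, replicate 1 would hold 15680766 reads. Of 22338 features with reads in replicates 2 or 3, 1624 had fewer reads in replicate 1 than in those 2 together. Among the 12229 with at least 60 reads in those 2, it had fewer in 75. The sources read here do not say whether replicate 1 holds reads of the other 2, and an SD over the 3 libraries may be too small. Without replicate 1 the mean of an expressed feature changed by a median of 1.07%, and of 953 genes in the lists used here only MAGEA2 changed its class, since 0.471, 1.36 and 1.12 RPKM in replicates 1, 2 and 3 set it below the limit through replicate 1 alone.

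The 3 libraries gave nearly the same picture. Over the 11319 expressed features, Pearson's r of log2(RPKM + 0.1) was 0.996 for replicates 1 and 2, 0.995 for replicates 1 and 3 and 0.991 for replicates 2 and 3. These are correlations across genes, which are not independent replicates, and all libraries share the wide range of levels. The coefficient of variation (SD over mean) had a median of 4.90%, falling from 5.55% for features of 1 to 10 RPKM to 3.45% for those of 100 RPKM or more. Without replicate 3 this median was 2.83%, and with replicate 1 reduced by the reads of the other 2 it was 7.70%. Between replicates 2 and 3 the median difference was 0.11 on the log2 scale, and 45 features differed by more than 2-fold. For features with 100 to 1000 reads in replicates 2 and 3 together, the median chi-square was 0.91 for replicates 2 and 3. It was 0.80 for replicates 1 and 3 and 0.43 for replicates 1 and 2. Each has 1 degree of freedom, for which counting noise alone gives a median well below 1, near the 0.43. The values of 0.91 and 0.80 lie above that. This median is for libraries with no shared reads. For the pairs with replicate 1 it would be lower if replicate 1 held reads of the other 2, so 0.43 may exceed counting noise.

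Of the features with at least 5 RPKM, the 10 with the largest coefficient of variation, from 43.4% to 55.5%, included the ribosomal protein copy RPS17L, with 3.25, 8.28 and 11.8 RPKM in the 3 libraries, and TOMM6, with 3.16, 11.5 and 10.3. They also included the readthrough features DYX1C1-CCPG1 and RPL17-C18orf32, the histone gene HIST2H2AA4, which has a near-identical copy, and the pseudogenes RPL15P3 and PVRIG2P. No source read here states how reads that match several features were shared out, and the values of copies, pseudogenes and readthrough features are uncertain.

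**Figure D1:**
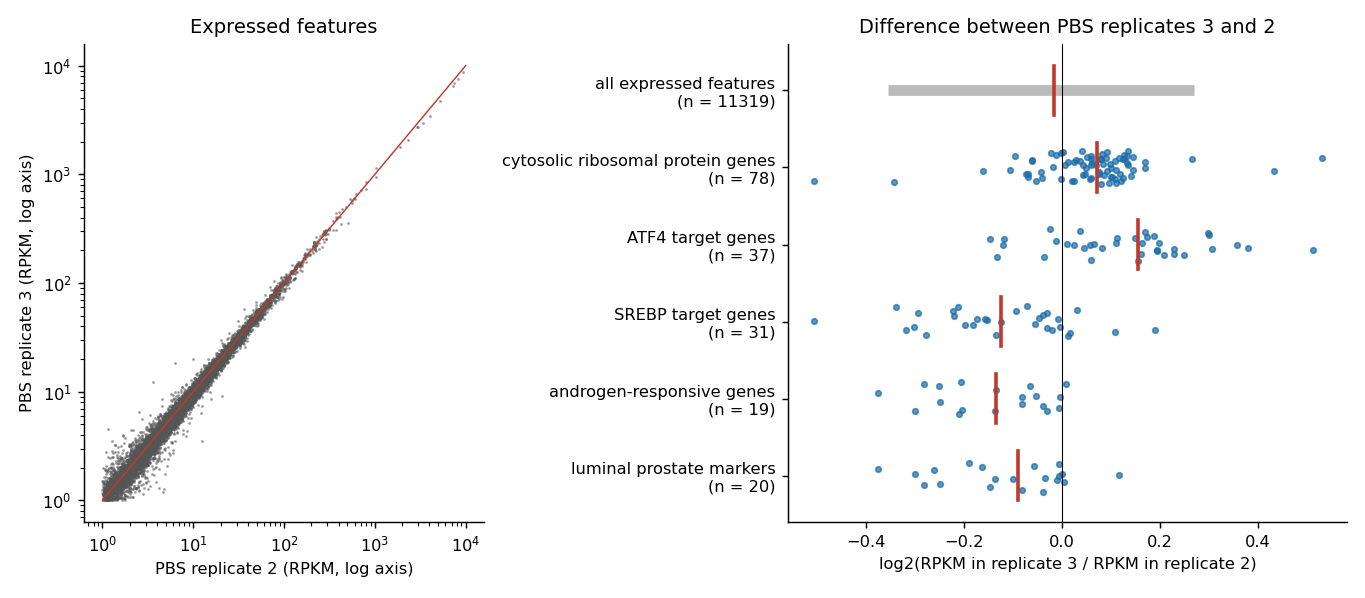
Left, RPKM of each of 11319 expressed features in PBS replicates 2 and 3 on log axes, with the line of equality in red. Right, log2 ratio of replicate 3 to replicate 2 for the expressed members of 5 gene lists (dots) and the 5th to 95th percentile of all expressed features (grey bar), with medians in red. The medians run from -0.13 to 0.16, against -0.02 for all features, and the ATF4, SREBP and androgen-responsive lists were chosen with these ratios known.

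Replicates 2 and 3 differed by small amounts in many of the gene lists. Of all expressed features 46.0% were higher in replicate 3, with a median log2 ratio of replicate 3 to replicate 2 of -0.02. Ribosomal protein genes were mostly higher in replicate 3, in 60 of 78 expressed members. Other lists leaned to replicate 2, which was higher in 13 of 13 mitochondrially encoded mRNAs, in 17 of 20 expressed luminal markers, in 21 of 25 expressed nuclear receptors and in 6 of 6 expressed claudins. The median log2 ratio was -0.13 for the mitochondrially encoded mRNAs, -0.09 for the luminal markers and -0.16 for the receptor tyrosine kinases. These differences rest on 1 library each and were not tested.

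The lists of ATF4 targets, SREBP targets and androgen-responsive genes were written after the replicates had been compared gene by gene, so their lean is a description of genes chosen with it in view. ATF4 is the transcription factor of the integrated stress response and drives amino acid synthesis, transport and loading onto tRNA. The cystathionine gamma-lyase gene CTH stood at 26.2, 23.3 and 30.2 RPKM in replicates 1, 2 and 3, the stress factor gene DDIT3 at 58.1, 49.5 and 63.4 and the folate enzyme gene MTHFD2 at 49.2, 45.6 and 56.1. In each of these genes replicate 1 lay between the other 2. SREBP drives sterol and fatty acid synthesis. FASN, which encodes fatty acid synthase, stood at 112, 114 and 89.8 RPKM, and FADS2, a fatty acid desaturase gene, at 84.1, 87.8 and 71.7.

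**Figure D2:**
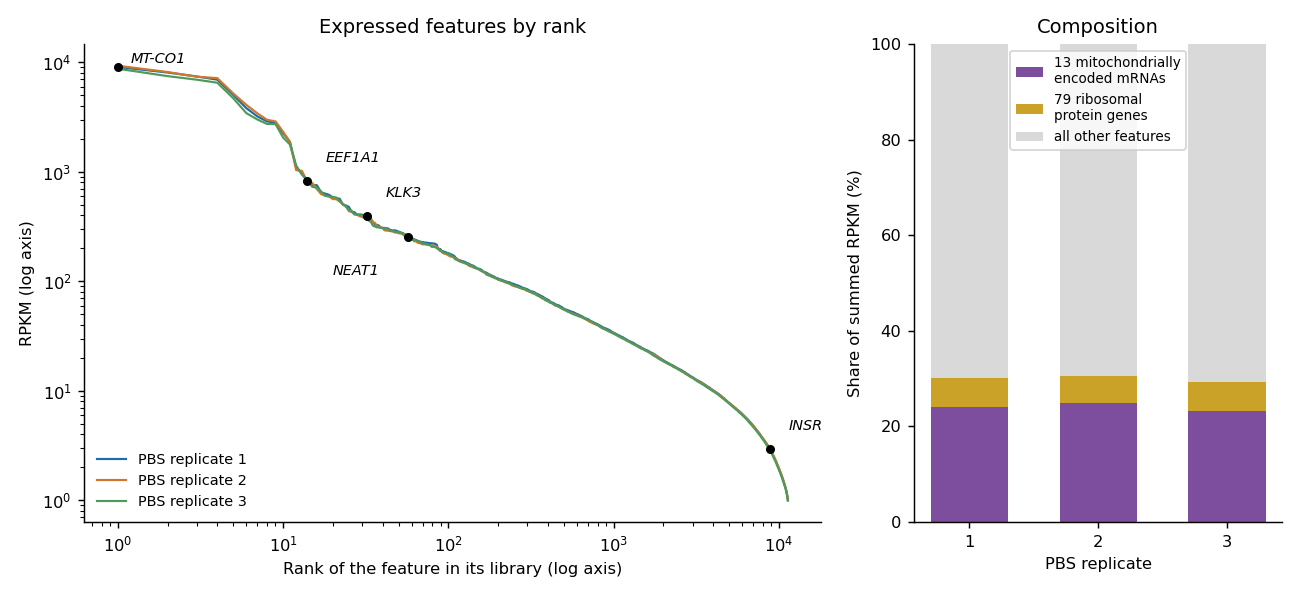
Left, RPKM of the expressed features of each PBS library against their rank, on log axes, with 5 genes marked at their mean level and rank. Right, share of summed RPKM taken by 13 mitochondrially encoded mRNAs (23.3% to 24.8%), 79 ribosomal protein genes (5.68% to 6.03%) and all other features in each library.

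Mitochondrially encoded mRNAs led the transcriptome. The mitochondrial genome encodes subunits of the respiratory chain and the ATP synthase on a few long transcripts that are cut into mRNAs. MT-CO1, a subunit of cytochrome c oxidase, was the highest feature in each library at 9064, 9306 and 8738 RPKM, followed by MT-CO2 at 7899.7 ± 367 (SD, n = 3) and MT-CO3 at 7250.1 ± 270.0. The 13 mRNAs ranged down to MT-ND6, a complex I subunit and the mRNA of the other strand, at 766 ± 40.3 RPKM, and together took 24.1% ± 0.77 of summed RPKM. These mRNAs are short, and they took 6.43% ± 0.23 of the reads in features. The 24 mitochondrial rRNA and tRNA features were all listed at 0, although these RNAs are present in every cell with mitochondria.

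Of the 30 most abundant features 13 were mitochondrial, and most of the others served protein synthesis. EEF1A1 and EEF2 encode the factors that bring tRNA to the ribosome and move it on, and stood at 825, 795 and 852 and 755, 698 and 716 RPKM in the 3 libraries. The pseudogene EEF1A1P5 was listed at 1093 ± 55 RPKM, 1.33 ± 0.02 times EEF1A1. This order is per length, with 1676 bases of exon for EEF1A1P5 and 5944 for EEF1A1, and EEF1A1 held more reads. The sequences are near-identical, and the split of reads between them is uncertain. EEF1A2, the form of muscle and nerve, was also high, at 213 ± 11.1 RPKM. Ribosomal protein genes took 5.90% ± 0.19 of summed RPKM, and 78 of 79 were expressed, with a median of 123 RPKM and the highest level in RPL13A at 609.9 ± 19. RPL36A was at 0.409, 0.368 and 0.484 RPKM while its copy RPL36AL was at 172, 167 and 170.5. RPL36A has pseudogene copies and in RefSeq lies inside another protein-coding gene, and the split of reads between such features is uncertain.

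Many mRNAs of the translation machinery begin with a C and a run of pyrimidines, the 5′ terminal oligopyrimidine motif through which mTOR controls their translation. To show it, the 10 bases before and 20 bases from the transcription start (RefSeq, GRCh38.p14) are given for the 14 most abundant nuclear protein-coding genes with 1 listed start, with the pyrimidine run from a C at the start in capitals.
EEF1A1 (chr6:73521013-73521042, minus strand): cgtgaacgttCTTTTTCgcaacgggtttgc
EEF2 (chr19:3985444-3985473, minus strand): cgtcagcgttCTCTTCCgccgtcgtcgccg
RPL13A (chr19:49487598-49487627, plus strand): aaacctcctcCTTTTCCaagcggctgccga
RPS12 (chr6:132814559-132814588, plus strand): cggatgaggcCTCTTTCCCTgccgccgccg
RPS18 (chr6:33272065-33272094, plus strand): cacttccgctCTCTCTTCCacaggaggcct
RPL41 (chr12:56116623-56116652, plus strand): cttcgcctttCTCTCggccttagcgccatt
RPS6 (chr9:19380217-19380246, minus strand): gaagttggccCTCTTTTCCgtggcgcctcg
RPLP0 (chr12:120201092-120201121, minus strand): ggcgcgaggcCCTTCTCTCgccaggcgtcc
RPL7A (chr9:133348208-133348237, plus strand): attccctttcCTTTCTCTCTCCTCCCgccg
GAPDH (chr12:6535254-6535283, plus strand): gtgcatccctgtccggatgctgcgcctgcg
HSPA5 (chr9:125241324-125241353, minus strand): cggtgaggtcgacgccggccaagacagcac
HSPA8 (chr11:123062117-123062146, minus strand): ggaaaccggtCTCattgaactcgcctgcag
CALR (chr19:12938599-12938628, plus strand): ggcggcgtccgtccgtactgcagagccgct
KLK3 (chr19:50854905-50854934, plus strand): gaggctccccagccccaagcttaccacctg
In this set EEF1A1, EEF2 and the ribosomal protein genes RPL13A, RPS12, RPS18, RPL41, RPS6, RPLP0 and RPL7A each start with C and at least 4 more pyrimidines, HSPA8 has a run of 3, and GAPDH, HSPA5, CALR and KLK3 have none. Of all 35116 promoters listed, 4.07% start so. Counted by gene, 649 (7.72%) of the 8411 expressed protein-coding features with a listed start held such a run. Of the 63 ribosomal protein genes with a listed start 47 held such a run, and since 16 others have no entry, no share of the whole list is given. A match is a description of the reference sequence and says nothing of translation in these cells.

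Outside the mitochondrial and ribosomal protein genes, the 10 highest features were EEF1A1P5, EEF1A1, EEF2, ATP5B, CALR, HSP90AB1, GAPDH, ACTB, HSPA5 and HSPA8. ATP5B, the beta subunit of the ATP synthase, was at 645 ± 17.5 RPKM, and CALR, a chaperone of the endoplasmic reticulum, at 606 ± 9.78. The chaperone HSPA5 of the same compartment was at 408, 378 and 442 RPKM in replicates 1, 2 and 3. KLK3 came next, at rank 32 of all features, and the membrane peptidase gene FOLH1, which encodes prostate-specific membrane antigen, stood at rank 39. The desaturase gene SCD, of fatty acid synthesis, was also among the leading features, at 327, 346 and 311 RPKM.

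Of 26 long noncoding RNAs on the list 14 (53.8%) were expressed. The nuclear RNAs NEAT1 and MALAT1, found in paraspeckles and nuclear speckles, were high, NEAT1 at 256, 273 and 239.9 RPKM and MALAT1 at 121, 120.1 and 126. FAM211A-AS1 at 145 ± 6.49 RPKM and DANCR at 133 ± 6.15 stood between them, and the snoRNA host genes SNHG8, GAS5, ZFAS1 and SNHG6 were between 41.1 and 62.2 RPKM. The prostate cancer transcript PCAT1 was expressed at 1.35 ± 0.211 RPKM. PCA3, PCGEM1 and PRNCR1, known from prostate cancer, were listed at 0, but so was LINC00657, a transcript that is abundant in most cells, and whether these zeros are failed estimates was not tested.

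Of 22 luminal markers 20 were expressed, with a median of 78.1 RPKM against 1.59 over all protein-coding features. KLK3, which encodes prostate-specific antigen, was at 407, 429 and 349 RPKM in replicates 1, 2 and 3, and its neighbour KLK2 at 149, 157 and 129. Replicate 3 was the lowest in both, and the ratio of the 2 genes stayed at 2.73, 2.73 and 2.69. FOLH1 at 309, 315 and 307 RPKM varied less. The metalloreductase genes STEAP1 and STEAP2 stood at 186 ± 6.46 and 159.7 ± 3.18 RPKM, the secreted zinc-binding glycoprotein gene AZGP1 at 121 ± 11.1 and the androgen-regulated protease gene TMPRSS2 at 95.9, 99.7 and 83.9. SLC45A3, which encodes prostein, had the widest gap between libraries relative to its level among the expressed markers named here, with 91.5, 97.4 and 75 RPKM. The prostatic acid phosphatase gene ACPP was at 3.88, 3.86 and 3.86 RPKM. MSMB, which encodes a main secreted protein of the normal gland, was low at 0.432, 0.427 and 0.423, and NPY, a neuropeptide gene, was at 0.0727, 0.157 and 0, which is 3, 2 and 0 reads.

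KLK3 and KLK2 lie next to each other on chromosome 19 and arose by duplication. Of the 20 expressed luminal markers 17, this pair among them, were lower in replicate 3 than in replicate 2, and 3 were higher. Whether the promoters of KLK3 and KLK2 bear on their levels was not tested. The 200 bases before each start (RefSeq, GRCh38.p14, plus strand) are shown. AGAACA or its reverse complement TGTTCT, a half-site that steroid receptors bind, is in capitals where it occurs.
KLK3 (chr19:50854715-50854914): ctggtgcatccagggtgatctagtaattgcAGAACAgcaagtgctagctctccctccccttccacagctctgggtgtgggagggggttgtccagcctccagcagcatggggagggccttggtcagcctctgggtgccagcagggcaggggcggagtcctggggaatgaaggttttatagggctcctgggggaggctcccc
KLK2 (chr19:50873239-50873438): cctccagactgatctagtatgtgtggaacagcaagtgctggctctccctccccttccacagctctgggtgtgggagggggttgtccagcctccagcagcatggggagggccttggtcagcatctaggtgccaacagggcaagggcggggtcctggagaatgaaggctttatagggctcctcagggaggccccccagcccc
Over 250 bases before the start the promoters shared 185 of 244 bases aligned without gaps (75.8%), with an unbroken shared run of 80 bases. In the 200 bases shown KLK3 held 1 half-site and KLK2 held 0, and over 250 bases 12.4% of all listed promoters held at least 1. That the letters were not found in KLK2 says nothing of binding there.

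Of the 15 kallikrein genes, which lie in 1 cluster, 4 were expressed, namely KLK3, KLK2, KLK4 at 115, 116 and 105 RPKM and KLK15 at 4.31, 4.20 and 4.26, and KLK3 alone held 60.1% of the summed level. KLK1 and KLK14 were low, at 0.475 ± 0.0966 and 0.226 ± 0.0877 RPKM. The other 9, among them the skin proteases KLK5 and KLK7, were near 0, and 6 of these were listed at 0.

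**Figure D3:**
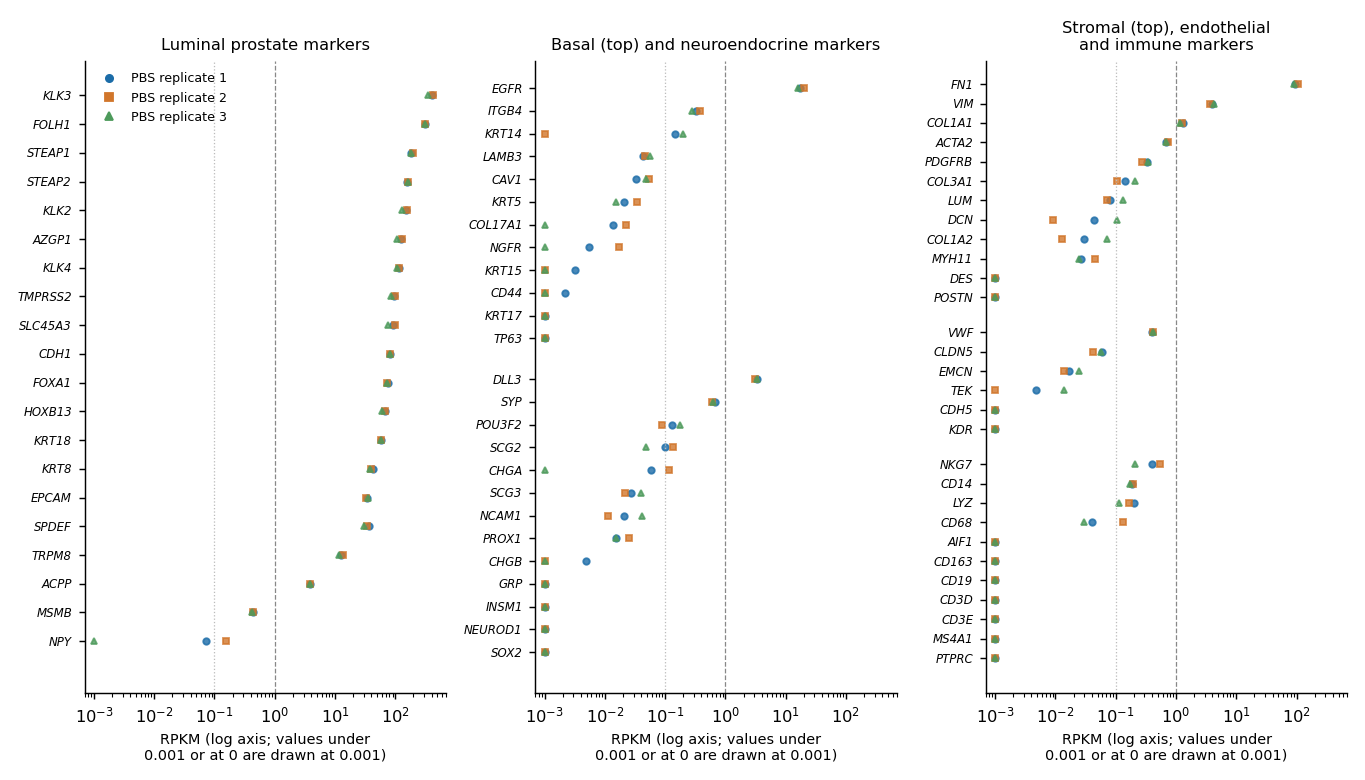
RPKM of markers of 6 cell types in the 3 PBS libraries on a log axis, with lines at 1 RPKM (dashed) and 0.1 RPKM (dotted), and values under 0.001 or at 0 drawn at 0.001. Above 1 RPKM lie 18 of the 20 luminal markers plotted, and of the other markers EGFR, DLL3, FN1, VIM and COL1A1 do.

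Markers of other cell types were mostly near 0 or low. Of 12 basal markers EGFR was expressed, at 17.3, 20 and 15.9 RPKM, and 9 were near 0. KRT5 was at 0.0208, 0.0337 and 0.0153 RPKM and CD44 was at a mean of 0.00074 RPKM, from 1 read in replicate 1. TP63 was listed at 0 in each library, where 3 reads in replicate 1 would have given 0.00899 RPKM. Of 14 neuroendocrine markers DLL3, a Notch ligand, was expressed at 3.40, 3.15 and 3.38 RPKM, 4 were low and 9 near 0. SYP was the highest of the low ones at 0.665, 0.597 and 0.630, and the factor genes INSM1, NEUROD1 and SOX2 were near 0. Of 12 stromal markers FN1, VIM and COL1A1 were expressed, 5 were low and 4 near 0. ACTA2 was the highest of the low ones at 0.701 ± 0.0351 RPKM. FN1, which encodes fibronectin, reached 94.5, 106 and 89.2 RPKM, while VIM was at 3.97 ± 0.286 and COL1A1 at 1.25 ± 0.0813, and COL1A2, MYH11, DES and POSTN were near 0. No endothelial or immune marker was expressed, the highest being VWF at 0.412 ± 0.00608 RPKM and NKG7 at 0.386 ± 0.166, and PTPRC, the pan-leukocyte gene CD45, was listed at 0.

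Of 23 transcription factors of the prostate lineage 17 (73.9%) were expressed. The ETS factor EHF was at 94.5, 96.9 and 99 RPKM, the pioneer factor FOXA1 at 74.8, 74.2 and 73.7 and HOXB13 at 68.2, 68.5 and 61.1. The SD for FOXA1 was 0.536 RPKM, small beside its level. TBX3, CREB3L4, SPDEF, GATA2 and GRHL2 stood between 25.3 and 58.3 RPKM. SOX9, which marks progenitors, was uneven, at 1.42, 1.82 and 0.883 RPKM, and GATA3 and MEIS2 were near 0. All 17 steroid receptor coregulators and chaperones on the list were expressed, from NCOA3, a coactivator, at 4.85 ± 0.150 RPKM to HSP90AB1, which holds unliganded receptors, at 571 ± 10.1.

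Of the 20 androgen-responsive genes 19 were expressed, with a median of 62.2 RPKM. Since this list was written after the replicates had been compared gene by gene, the count and median describe genes chosen with their values known. SORD, which encodes sorbitol dehydrogenase, was at 153, 153 and 152 RPKM, and FKBP5, a cochaperone, at 18.3, 19.9 and 17.2. STEAP4 stood apart from STEAP1 and STEAP2, at a mean of 0.00552 RPKM. Of 23 genes that make or clear androgens 6 (26.1%) were expressed. They were led by the steroid and fatty acid dehydrogenase genes HSD17B10 at 61.7 ± 1.63 RPKM and HSD17B4 at 30.6 ± 0.976. The 5-alpha reductases SRD5A1 and SRD5A3 were at 7.56 ± 0.215 and 4.50 ± 0.0765 RPKM, whereas SRD5A2, the form of the normal prostate, was near 0 at 0.0152 ± 0.0156. CYP17A1, which opens androgen synthesis, had 1 read in replicate 1 and none in the other libraries, and HSD3B1 and AKR1C3 were low at 0.0666 ± 0.0468 and 0.0832 ± 0.0386 RPKM. The glucuronosyltransferases UGT2B15 and UGT2B17, which inactivate androgens, were low at 0.427 ± 0.112 and 0.356 ± 0.0834 RPKM, and close in sequence, so reads may be split between them.

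**Figure D4:**
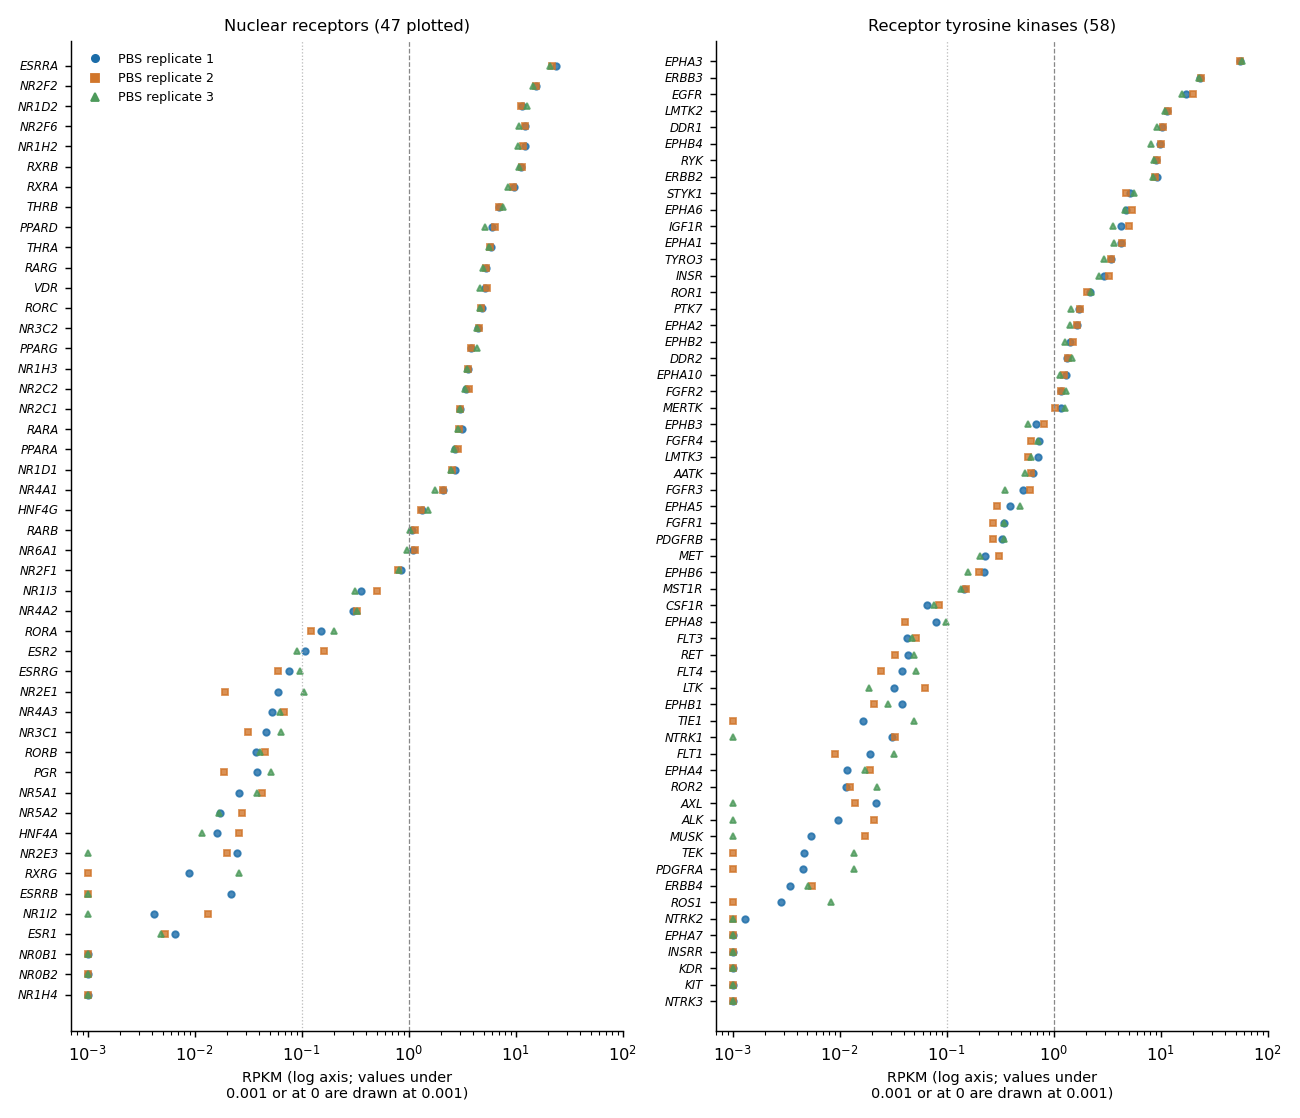
RPKM of 47 nuclear receptors and 58 receptor tyrosine kinases in the 3 PBS libraries on a log axis, ordered by mean, with lines at 1 RPKM (dashed) and 0.1 RPKM (dotted), and values under 0.001 or at 0 drawn at 0.001. ESRRA is the highest nuclear receptor plotted and EPHA3 the highest kinase, and 24 and 22 of those plotted are expressed.

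Nuclear receptors are transcription factors that bind steroids, retinoids, lipids or no known ligand. Of 48, 25 were expressed (52.1%, close to the 53.2% of all protein-coding features), 7 were low and 16 near 0. ESRRA, an orphan receptor of energy metabolism, was at 24, 22 and 21 RPKM, above NR2F2 in each library, which was at 15.4, 15.5 and 14.4. NR1D2, NR2F6, NR1H2 and RXRB stood between 11.1 and 11.7 RPKM, and neighbours in this order overlapped between libraries. RXRA and RXRB, the shared partners of many receptors, were at 9.11 ± 0.625 and 11.1 ± 0.285 RPKM, and RXRG was near 0. The vitamin D receptor gene VDR was at 5.21, 5.41 and 4.62 RPKM and PPARG, a regulator of fat storage, at 3.81, 3.80 and 4.33.

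Of the steroid receptors, the mineralocorticoid receptor gene NR3C2 was at 4.45, 4.52 and 4.34 RPKM. The glucocorticoid receptor gene NR3C1 was near 0 at 0.0463, 0.0315 and 0.0643 RPKM, from 19, 4 and 9 reads. PGR and ESR1, the progesterone and estrogen receptor genes, were near 0 at 0.0361 ± 0.0163 and 0.00556 ± 0.000900 RPKM, and ESR2 was low at 0.108, 0.163 and 0.0913.

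Receptor tyrosine kinases bind growth factors and ephrins at the cell surface. Of 58, 22 were expressed (37.9%), 11 low and 25 near 0. EPHA3, a receptor for ephrin-A ligands, was highest at 55.1, 55.5 and 57 RPKM, more than 2 times the next, ERBB3 at 23.3, 23.7 and 22.7. EGFR varied more, at 17.3, 20 and 15.9 RPKM. ERBB2, the preferred partner of ERBB3, was at 9.20, 8.93 and 8.44, and ERBB4 was near 0 at 0.00468 ± 0.00111. LMTK2, DDR1, EPHB4 and RYK stood between 9.01 and 11.4 RPKM. The insulin-like growth factor receptor IGF1R was at 4.23, 5.02 and 3.59 RPKM and the insulin receptor INSR at 2.94, 3.26 and 2.65, both lowest in replicate 3. MET, the receptor for hepatocyte growth factor, was low at 0.226, 0.305 and 0.203 RPKM, and so were FGFR1, FGFR3 and FGFR4, while FGFR2 was at 1.22 ± 0.0764. AXL was near 0, and KIT and KDR were listed at 0.

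Of 41 growth factor ligands 16 (39.0%) were expressed. Ephrins led, with EFNA5 at 37.8, 39.6 and 35 RPKM and EFNA1 at 29.3, 28.6 and 28.4, both ligands of the class that EPHA3 binds. VEGFA, a ligand of endothelial receptors, was at 23.5, 23.4 and 22.8 RPKM, while its receptors KDR and FLT1 were at 0 or near 0. EGF, HBEGF and TGFA, which bind EGFR, were at 2.82 ± 0.0703, 2.14 ± 0.197 and 1.07 ± 0.0344 RPKM. NRG1, NRG2 and HGF were listed at 0, and IGF1 was low at 0.626 ± 0.0271.

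Of 14 receptors of the TGF-beta family 8 were expressed (57.1%, near the 53.2% of all protein-coding features), led by ACVR1B at 10.7 ± 0.144 RPKM and BMPR2 at 10.6 ± 0.302. TGFBR1 was at 4.58, 4.51 and 4.79 RPKM, but TGFBR2, which binds the TGF-beta ligand first, was low at 0.242, 0.307 and 0.195. Of 12 Wnt receptors 10 were expressed (83.3%), with FZD6 highest at 14.9 ± 0.348 RPKM, and of 9 Notch receptors and ligands 6 were (66.7%), with JAG2 highest at 11.9, 11.7 and 9.48 RPKM. IL6R, the receptor for interleukin 6, was high at 39.7, 43.1 and 36.4 RPKM, its signal transducer gene IL6ST was at 9.99 ± 0.158, and STAT3, the factor they act through, at 28.3, 28.6 and 28. JAK1 was at 1.93, 2.32 and 1.92 RPKM.

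Of 45 G protein-coupled receptors on the list 13 were expressed (28.9%) and 21 were near 0. The atypical chemokine receptor ACKR3 was highest at 37.7, 35.7 and 34.8 RPKM, while CXCR4, which binds the same chemokine CXCL12, was low at 0.0904, 0.0325 and 0.118 RPKM, or 9, 1 and 4 reads. LPAR3 and S1PR3, receptors for lysophosphatidic acid and sphingosine 1-phosphate, were at 24.9 ± 0.482 and 15.5 ± 2.10 RPKM. The prostate olfactory receptors OR51E1 and OR51E2 were low at 0.117 ± 0.0379 and 0.0800 ± 0.0559 RPKM. LPAR6 and LPAR1 were listed at 0. LPAR6 lies inside the gene RB1, and of 674 protein-coding features that lie inside another protein-coding gene in RefSeq 40.7% were listed at 0 in the 3 libraries, against 14.9% of the other 16929. Of other list members that lie so, some were above 0, such as HOXA10, and some at 0, such as HOXB4. Whether this position bears on the LPAR6 value was not tested.

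**Figure D5:**
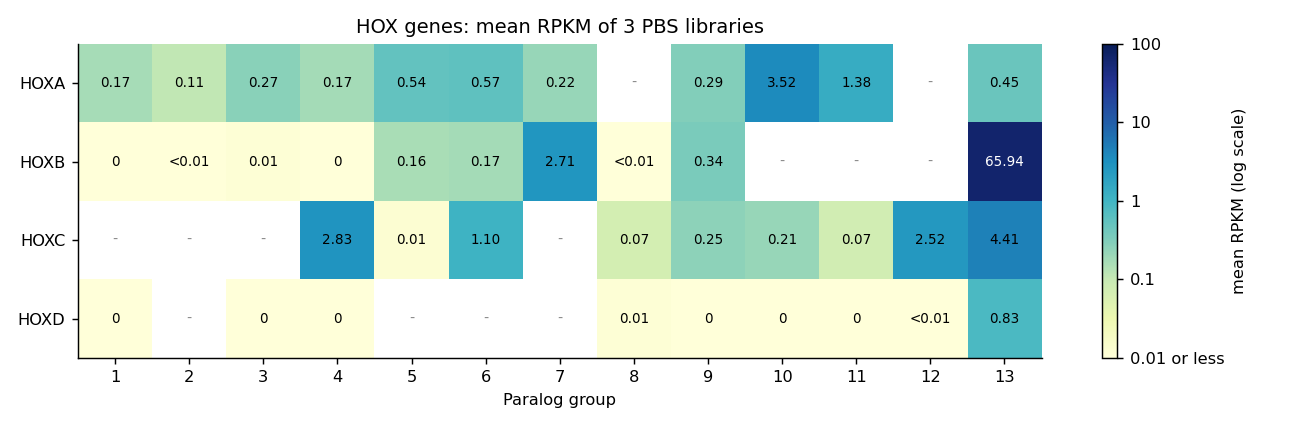
Mean RPKM of 39 HOX genes by cluster (rows) and paralog group (columns), coloured on a log scale, with a dash where there is no human gene. HOXB13 at 65.9 RPKM exceeds every other member by more than 10 times, and the HOXD row is near 0 except HOXD13 at 0.825.

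HOX genes set position along the body axis, and the last genes of each cluster mark the hindmost structures, the prostate among them. HOXB13 held 73.8% of the summed level of the 39 genes. Of the others, HOXC13 at 4.73, 4.21 and 4.30 RPKM, HOXA10 at 5.05, 2.32 and 3.20, HOXC4, HOXB7 and HOXC12 were expressed, 19 were low and 14 near 0. HOXA10 and HOXA11 differed by more than 1.5 times between libraries, with HOXA11 at 1.45, 0.971 and 1.70 RPKM, and overlap other transcripts of their cluster. Of the 9 HOXD genes 8 were near 0 and HOXD13 was low at 0.847, 0.839 and 0.790. HOXC4, listed as 2 features, is given by the higher, at 2.83 ± 0.210 RPKM.

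Of 24 keratins KRT18 at 58.5, 57.2 and 57 RPKM, KRT8 at 42.5, 39.6 and 38.1 and KRT10 at 7.79, 7.55 and 7.84 were expressed, with KRT18 and KRT8, which pair with each other, in a ratio of 1.44 ± 0.06. KRT19 was low at 0.762 ± 0.0910 and KRT7 near 0. E-cadherin (CDH1) was at 81.3, 82.1 and 82.3 RPKM and N-cadherin (CDH2) near 0, with 1, 1 and 0 reads. Of 21 claudins, the seals of tight junctions, CLDN7 led at 53.9, 50.8 and 47.3 RPKM, then CLDN4, CLDN3 and CLDN12 at 34 ± 2.47, 22.8 ± 1.95 and 21 ± 2.55, and CLDN1 was near 0. Of 26 integrins 8 (30.8%) were expressed. ITGB1 at 88 ± 2.11 RPKM held 67.8% of the summed level, with ITGAV at 17 ± 0.884 and ITGA6 at 6.39 ± 0.225, while ITGB4, the hemidesmosome partner of ITGA6, was low at 0.329 ± 0.0465.

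ETS factors included the epithelial members EHF and SPDEF, and also ELK4 at 18.7 ± 0.747 RPKM and ELF5 at 6.74, 6.72 and 6.75. ERG and ETV1, both known from gene fusions in prostate cancer, were near 0 at means of 0.00366 and 0.00456 RPKM, with at most 3 reads in a library. Among 30 drivers of prostate cancer 26 (86.7%) were expressed. MYC was at 69, 66.6 and 66.6 RPKM, CTNNB1, which encodes beta-catenin, at 45.9, 45.7 and 46.4 and RB1 at 7.90 ± 0.129, which are mRNA levels and say nothing of mutations or protein. CDKN2A was low at 0.129 ± 0.0261 RPKM and MYCN was listed at 0. Genes of dividing cells were expressed, such as CCNB1 at 38.1, 38.2 and 37.4 RPKM and MKI67 at 9.16, 9.99 and 8.84. Cyclin D1 (CCND1) was at 31.5, 30.7 and 30.1, and CCND2 was near 0 at 0.0539 ± 0.00299.

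The AMP-activated kinase AMPK senses low energy and has a catalytic alpha subunit beside regulatory beta and gamma subunits. The catalytic subunit gene PRKAA1 was at 18.2, 18.3 and 19.5 RPKM, 11.4 ± 0.84 times PRKAA2 at 1.57, 1.74 and 1.60. PRKAG1 led the gamma subunits at 16 ± 0.770 RPKM and PRKAG3, the form of skeletal muscle, was listed at 0. PRKAB2 at 6.60 ± 0.316 exceeded PRKAB1 at 4.13 ± 0.0329. Of its upstream kinases CAMKK2 was at 23.7, 24.1 and 22.8 RPKM and STK11, also named LKB1, at 5.01, 4.51 and 4.66. Transporters that carry metformin and other cations were few. SLC22A3 was the only expressed one of 8, at 1.49, 1.36 and 1.49 RPKM, SLC29A4 was low at 0.501 ± 0.0541, and SLC47A1, which exports metformin in kidney and liver, was listed at 0.

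Of 25 glycolytic isozymes 16 (64%) were expressed. LDHB at 239, 232 and 243 RPKM exceeded LDHA at 56, 57.3 and 54.5 in each library, by 4.26 ± 0.21 times. Of the hexokinases HK1 was at 21.4 ± 0.671 and HK2 at 12.9 ± 0.0714 RPKM, with HK3 near 0, and PKM was at 79.3 ± 1.80 while PKLR was near 0. SLC2A1 was the highest glucose transporter gene at 15.2, 15 and 13.8 RPKM, SLC2A12 was next at 9.13, 9.58 and 8.58, and SLC2A3 was near 0 at 0.0788 ± 0.00391.

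The medium held insulin, apotransferrin, biotin and adenine, and the levels of genes of the insulin and IGF axis, iron handling and biotin and adenine use were as follows. IGF2R, which clears IGF2 and carries lysosomal enzymes, was at 36.2, 38.3 and 35.4 RPKM, above both INSR and IGF1R, and the adaptor IRS1 was at 3.01 ± 0.104. The transferrin receptor gene TFRC was at 69.2, 71.2 and 67.4 RPKM, the ferritin chain genes FTH1 and FTL at 372, 342 and 371 and 226, 209.7 and 221, and the iron exporter gene SLC40A1 was low at 0.273 ± 0.0274. All 11 genes of biotin and adenine use were expressed, among them APRT, which salvages adenine, at 72.9, 69.1 and 63.7 RPKM and SLC5A6, which takes up biotin, at 6.74, 7.28 and 5.97.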

How the data were processed

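Libraries from C4-2 cells were made with a TruSeq mRNA protocol and read over 50 bases on a HiSeq instrument. The RPKM values of 57773 features are as the authors deposited them, from mapping in version 7.0 of CLC Genomics Workbench. The submitters' processing notes name the build GRCh37.p13. No source read here states the annotation release, the use of strand or the treatment of reads with several matches, and overlapping, antisense and near-identical genes are uncertain. Genes were matched by symbol, with the highest taken where a symbol had numbered features. PECAM1, SCHLAP1, DRAIC and ARLNC1 were not analysed here, and some list members that enter the counts are not reported or plotted by name here. Of all features 32941 matched a RefSeq gene (GRCh38.p14) by current or older symbol. No coordinates of that build were set beside values of the table, and sequences are credited to RefSeq.

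Only the 3 PBS columns entered the description. Whole reads were recovered from RPKM steps over all 8 columns, and 100% of the 25529 features above 0 in any library came out whole within 0.01 read. A factor shared by the exon length and all the reads of a feature is not seen, so low read numbers may be too small by it. The recovery was tested on simulated data. Per-sample means, SDs, correlations of log2(RPKM + 0.1) and list counts were computed in Python (3.11.15) using pandas (2.3.3), numpy (2.4.6) and, for ranks, scipy (1.17.1). There is no contrast here and no test was run. The 45 gene lists, their members and the limits of 1 and 0.1 RPKM were chosen with earlier results of these data known. Genes named were members of these lists (the highest, those near 0 and those central to a list), the 30 most abundant features, the 10 highest outside the mitochondrial and ribosomal genes, the 10 highest long noncoding RNAs and the 10 most variable features of at least 5 RPKM. Alternatives were other limits, TPM, recovered reads, each library left out, other pseudocounts and replicate 1 reduced by the reads of replicates 2 and 3. Intervals and floors, such as 3 reads for a value of 0, cover counting error only.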

Additional observations from a re-analysis of the deposited data

How the results depend on the processing

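Of 97 recomputed values of 13 results, 82 stayed within the spread between libraries or within 1.5 times a count. A limit of 0.5 or 2 RPKM gave 12695 or 9655 expressed features in place of 11319, and 1 TPM gave 14210. On the TPM scale, where 1 unit is a lower level, 13 HOX genes in place of 6, 2 basal markers in place of 1 and 2 neuroendocrine markers in place of 1 were expressed, and a limit of 0.5 RPKM also gave 2 neuroendocrine markers. Left out of the sum, the mitochondrially encoded features brought the share of the 10 most abundant features from 22.5% to 3.90%, raised that of ribosomal protein genes from 5.90% to 7.77% and raised the features that hold 50% of the sum from 427 to 1034. Counted in recovered reads, which favour long genes, the 10 leading features held 6.87%, mitochondrially encoded mRNAs 6.43%, ribosomal protein genes 4.68%, and 1081 features held 50%. The lowest correlation between libraries fell from 0.991 to 0.984 with replicate 1 reduced by the reads of replicates 2 and 3, and the median coefficient of variation rose from 4.90% to 7.70%. Without a filter on low values it was 7.77%. Leaving out 1 library gave 2.83% to 5.41%, lowest without replicate 3 and highest without replicate 1. In the reduction, 1624 features had fewer reads in replicate 1 than in the other 2 together and were left out. No paired analysis was possible because there is 1 group and no test. Levels near 0 rest on a few reads.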

Other observations

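A few genes of the germ line stood among the abundant mRNAs. Cancer-testis antigens are made in the testis and, in tumors, from demethylated promoters. Of 27 genes 7 were expressed and 16 near 0, against 53.2% of all protein-coding features expressed. PAGE1 was at 228, 226 and 219 RPKM in replicates 1, 2 and 3, at rank 68 of all features. MAGEA3 was at 52.3, 52.7 and 50.0 RPKM and MAGEA6 at 50.0, 48.7 and 49.4, in a ratio of 1.05 ± 0.04, and since their sequences are nearly identical the split of reads between them is uncertain. MAGEA1 was at 36.1 ± 1.63 RPKM and PRAME at 28.2 ± 1.77, while MAGEA4, MAGEA10 and MAGEC2 of the same family were near 0. MAGEA10 was listed at 0 and in RefSeq lies inside another protein-coding gene, and whether this position bears on its value was not tested.

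Of 20 glutathione transferases 11 were expressed (55%, near the 53.2% of all protein-coding features). MGST1 was at 32.6 ± 0.204 RPKM and GSTM3 at 16.1 ± 0.150, whereas GSTP1, which is silenced by methylation in most prostate cancers, was low at 0.0696, 0.0375 and 0.170 RPKM, or 6, 1 and 5 reads. CKB, the creatine kinase of brain, was at 146 ± 12.5 RPKM, and CKM and CKMT2 of muscle were near 0.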
